A study of Mus musculus with 50 samples.

Results

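Potassium channel genes were taken as the protein-coding mouse genes whose symbol starts with Kcn followed by subfamily letters and a number. The gene table of GRCm38 held 93 such genes in 20 subfamilies, among 21900 protein-coding genes. Of the 144465 merged ATAC-seq peaks of the series, 1083 overlapped a potassium channel gene or lay within 2 kb of one. Peaks within 2 kb of either end of a gene are called gene-end peaks (153) and the others gene-body peaks (930). The strand was known only for the 68 genes with a RefSeq promoter sequence, so a gene-end peak can lie at the start or at the far end of its gene, and 57 of the 153 lay within 2 kb of a RefSeq transcription start site. In all, 89 genes had a peak, 80 had a gene-end peak, and Kcne1l, Kcne4, Kcnj5 and Kcnv2 had none. One peak was shared by a pair of members and is counted 1 time, and 37 of the peaks also lay at another protein-coding gene. The gene table gave gene spans only, so exons and introns were not told apart. At the edge of the 2 kb window, the peaks nearest to it on the inside lay 1849 bp from Kcns3, 1931 bp from Kcnk1 and 1975 bp from Kcns2, and those nearest on the outside lay 2222 bp from Kcnh5, 2310 bp from Kcne2 and 2374 bp from Kcna1.

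The mice were C57BL/6JRj offspring of dams of 1 common origin and differed in the place of birth and rearing, which was 1 of 5 rearing facilities (RF1 to RF5). NeuN-positive nuclei, the neuronal fraction of the sort, came from the ventral hippocampus of male offspring, and chromatin accessibility was measured by ATAC-seq, which reads out where a transposase can cut DNA. There were 10 groups of 5 libraries, with 1 mouse per library: RF1 to RF5 at TP2, at 14 weeks of age after all mice had moved to 1 test laboratory, and RF1 to RF5 at TP1, at 8 weeks of age in the RF itself. TP2 mice had not been tested and were littermates of the TP1 mice. All mice were wild-type animals of the same strain, and the facilities differed from each other in many conditions at the same time, so the comparison does not single out one of them. Amplification and sequencing were done in 1 batch per TP, so a difference between TPs cannot be told apart from that batch, and levels at TP2 and TP1 are given side by side without a test.

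Potassium channels let potassium leave or enter cells and set the resting potential, the shape of action potentials and the firing pattern of neurons. Voltage-gated channels are tetramers of pore-forming subunits from the Kcna, Kcnb, Kcnc, Kcnd, Kcnh and Kcnq subfamilies. Kcnf, Kcng, Kcns and Kcnv subunits give no current alone and modify Kcnb channels. Kcnab, Kcne and Kcnip proteins are accessory subunits. Kcnma1 and the Kcnn and Kcnt genes encode channels gated by calcium or sodium, Kcnmb genes the accessory subunits of the Kcnma1 (BK) channel, Kcnj genes the inward rectifiers, and Kcnk genes the leak channels with paired pore domains. Hippocampal pyramidal cells are known for their A-type current, to which Kcnd2 (Kv4.2) contributes, and fast-spiking interneurons for Kcnc1 (Kv3.1).

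The total count over peaks was 5111223 to 36401717 per library at TP2 and 33663505 to 77396321 at TP1. Between RFs, 7 pairs of TP2 libraries differed by no more than sampling noise, and replicates 3 and 5 of RF1 and replicate 5 of RF2 lay near libraries of another RF, so results at TP2 are given with all 25 libraries and, where it matters, without these 3. These 3 were picked for their closeness to another RF, so leaving them out favours larger RF differences. RF1 replicate 3 was also the shallowest library, with 5111223 counts. Within groups, 20 of the 100 library pairs also agreed within sampling noise. Counted as single samples, such libraries leave 18 samples at TP2 and 21 at TP1. Accessibility at gene-end peaks of the 5 general neuronal markers Rbfox3, Snap25, Syt1, Stmn2 and Nefl summed to 279.0 to 320.3 CPM (counts scaled to the TMM-adjusted library size) at TP2 and to 262.7 to 377.1 CPM at TP1. The 5 astrocyte markers summed to 40.6 to 54.4 CPM at TP2 and 38.0 to 53.8 CPM at TP1, and the 6 of 7 markers of the oligodendrocyte lineage with a gene-end peak to 38.5 to 49.9 CPM and 42.6 to 55.5 CPM. No gene-end peak was seen at Mog, Cx3cr1, Pecam1, Tek or Flt1. Per kb, Mbp (8.92 CPM per kb) and Gfap (7.68 CPM per kb) lay above the neuronal marker Neurod6 (7.33 CPM per kb). The 4 microglial markers with a gene-end peak summed to 47.2 to 55.2 CPM at TP2 and 46.8 to 62.6 CPM at TP1. In RF1 at TP1 the 5 general neuronal markers summed to 338.7 to 377.1 CPM, against 262.7 to 343.6 CPM in the other RFs, 3 of excitatory neurons to 266.4 to 304.3 CPM, against 222.2 to 279.5 CPM, and 5 of inhibitory neurons to 93.1 to 97.6 CPM, against 65.7 to 79.4 CPM, and the last of these ranges did not overlap.

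The promoters shown here belong to 4 members described below whose gene-end peak changed between RFs or whose RF differences changed between TPs, and in which the peak held the whole window. Each window runs from 250 bases before to 50 bases after a RefSeq transcription start site (GRCm38.p6). Capitals mark matches, on either strand, to the GC box (GGGCGG), the E-box (CACGTG), the AP-1 motif (TGANTCA), the cyclic-AMP response element (TGACGTCA) or the TATA motif (TATAAA). The windows are Kcnc1 on chr7:46396218-46396517 (plus strand), Kcnd2 on chr6:21215096-21215395 (plus strand), Kcne3 on chr7:100178433-100178732 (plus strand) and Kcnh4 on chr11:100759729-100760028 (minus strand).
Kcnc1 promoter: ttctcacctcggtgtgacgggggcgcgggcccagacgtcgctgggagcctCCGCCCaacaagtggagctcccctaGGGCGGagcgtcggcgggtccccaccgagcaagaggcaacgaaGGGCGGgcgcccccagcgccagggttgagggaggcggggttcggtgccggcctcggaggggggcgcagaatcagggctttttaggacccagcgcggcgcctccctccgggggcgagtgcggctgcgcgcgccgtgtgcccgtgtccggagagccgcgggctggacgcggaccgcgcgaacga
Kcnd2 promoter: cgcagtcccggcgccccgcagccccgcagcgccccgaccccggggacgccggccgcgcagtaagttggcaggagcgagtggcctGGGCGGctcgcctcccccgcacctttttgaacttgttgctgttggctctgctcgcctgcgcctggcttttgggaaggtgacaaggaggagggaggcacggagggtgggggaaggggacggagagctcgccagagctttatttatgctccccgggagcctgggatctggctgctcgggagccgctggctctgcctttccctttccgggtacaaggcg
Kcne3 promoter: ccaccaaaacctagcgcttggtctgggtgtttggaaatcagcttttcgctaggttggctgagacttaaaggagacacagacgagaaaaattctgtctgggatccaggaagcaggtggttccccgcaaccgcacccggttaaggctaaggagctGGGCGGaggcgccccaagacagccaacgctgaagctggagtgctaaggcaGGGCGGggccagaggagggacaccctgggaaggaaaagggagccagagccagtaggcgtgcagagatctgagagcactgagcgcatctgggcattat
Kcnh4 promoter: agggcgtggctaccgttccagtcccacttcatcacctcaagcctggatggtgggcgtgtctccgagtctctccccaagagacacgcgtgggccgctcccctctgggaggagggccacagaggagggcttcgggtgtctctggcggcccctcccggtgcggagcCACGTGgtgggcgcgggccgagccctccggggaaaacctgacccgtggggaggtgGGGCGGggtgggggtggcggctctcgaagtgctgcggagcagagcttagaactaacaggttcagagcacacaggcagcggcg
All capitals in the Kcnc1, Kcnd2 and Kcne3 windows are GC boxes, and Kcnh4 holds an E-box and a GC box. The GC content was 74.7% for Kcnc1, 68.7% for Kcnd2 and for Kcnh4, and 57.7% for Kcne3. Of 93 RefSeq windows of 68 members, 48.4% held a GC box, against 35.7% of the 32851 windows of all genes. An E-box was in 7.53% of member windows (7.15% of all), TATAAA in 5.38% (13.6% of all), an AP-1 motif in 4.30% (7.81% of all), and the cyclic-AMP response element in 0 of 93 (1.79% of all). A match is a run of letters, not a bound site. Over the 55 member peaks that held a window, GC content and the log2 fold change of each RF over the others correlated at r = -0.36 for RF4 at TP1 and at 0.28 for RF1 at TP2, and between -0.18 and 0.12 for the other RFs at each TP. These values come from the same libraries and are a description.

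Levels were compared between genes as CPM per kb of the most accessible gene-end peak. They ran from 1.79 for Kcnmb1 to 53.6 for Kcnj14, with a median of 6.55 over 80 genes. Among voltage-gated pore subunits, Kcnh4 led its subfamily at 28.9, Kcna1 stood at 12.4 and Kcnd2 at 10.2. The highest modifying subunits were Kcng2 at 11.6, Kcnv1 at 9.35, Kcns2 at 9.15 and Kcnf1 at 6.30. Among accessory subunits, Kcnab2, which binds Kv1 channels, stood at 27.6, Kcnmb4 at 14.2, Kcnip3 at 12.6 and Kcne3 at 4.27. Kcnn1 (SK1) stood at 34.9, Kcnma1 at 13.5 and Kcnt1 at 5.11, and among leak channels Kcnk4 led at 21.4. The peaks of Kcnj14, Kcnn1, Kcnh4, Kcnab2 and Kcnk4 also lay at another gene (Cyth2, Ccdc124, Rab5c, Nphp4 and Catsperz), and these levels cannot be assigned to 1 of the pair. Kcnj14 had 34.3 to 58.5 CPM per kb at TP2 and 42.4 to 78.2 at TP1, and its neighbour in the order, Kcnn1, 24.8 to 38.6 at TP2 and 30.0 to 48.6 at TP1, so the ranges of these neighbours overlapped. Kcnf1 had 5.18 to 7.18 at TP2 and 5.70 to 7.45 at TP1. MACS2 had called a peak overlapping a gene-end peak in every one of the 50 libraries for 58 of the 93 genes. For 104 of 153 gene-end peaks (68.0%) and 365 of 930 gene-body peaks (39.2%), a call was present in at least 3 libraries of all 10 groups, against 40.6% of all merged peaks.

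The first question was how many of these peaks depended on the RF, by edgeR's quasi-likelihood F-test with a Benjamini-Hochberg FDR below 0.01 over all peaks of the series. At TP2, 309 of the 1083 potassium channel peaks depended on RF (28.5%), beside 30.8% of all peaks. At TP1, 577 did (53.3%), beside 59.1% of all peaks. Gene-end peaks were called more often than gene-body peaks at both TPs, and so were those of all genes. Of the 153 gene-end peaks, 87 depended on RF at TP2 (56.9%; 55.1% for gene-end peaks of all genes) and 117 at TP1 (76.5%; 80.3% for all genes). Of the 930 gene-body peaks, 222 did at TP2 (23.9%; 22.9% for all genes) and 460 at TP1 (49.5%; 50.7% for all genes). Read against the background, these shares were close to those of all genes. Gene-end peaks also held more counts, with a median of 466 per library against 166 for gene-body peaks. The TPs shared 258 called peaks, which were 83.5% of those at TP2 and 44.7% of those at TP1. At least 1 peak depended on RF in 67 genes at TP2 and in 85 genes at TP1. No overlap over all peaks and no share over all genes stand beside these values, so they are a description only. The counts at TP2 moved with the libraries and the offset used, as did those of all peaks. Without the 3 libraries named above, 530 peaks were called (48.9%, against 49.5% of all peaks). With libraries within sampling noise summed, 159 were called (14.7%, against 13.7%). After the counts of each 1 Mb bin had been taken as an offset, 76 were called (7.02%, against 8.42%). The bin counts held the tested peak and peaks of its own gene, so a change shared over a gene was partly taken out too. At TP1 the 1 Mb offset gave 527 (48.7%, against 55.5%) and the summed libraries 460 (42.5%, against 48.6%).

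Shares ranged widely over the subfamilies. Kcnt peaks stood at 22 of 32 at TP2 and 28 of 32 at TP1, and Kcnc peaks at 20 of 29 and 23 of 29. Kcna (11 of 27 at TP2 and 21 of 27 at TP1) and Kcnab (28 of 69 and 46 of 69) also lay above the share over all peaks at both TPs. Kcnq (38 of 101 and 56 of 101), Kcnj (42 of 109 and 60 of 109) and Kcnb (26 of 61 and 32 of 61) lay above the share over all peaks at TP2 and below it at TP1. Most peaks of a subfamily are gene-body peaks, for which the share over all genes was 22.9% at TP2 and 50.7% at TP1. The shares at TP1 were 55.4% for Kcnq, 55.0% for Kcnj and 52.5% for Kcnb. They also hold gene-end peaks, which were called more often, so the gene-body share alone does not place them. Of the 109 Kcnj peaks, 23 were gene-end peaks. At TP1, 18 of these 23 were called (78.3%), beside 80.3% of gene-end peaks of all genes. Among subfamilies with at least 20 peaks, 7 lay below the share over all peaks at both TPs: Kcnd (16 of 85 and 48 of 85), Kcng (5 of 25 and 12 of 25), Kcnk (16 of 75 and 42 of 75), Kcnn (16 of 63 and 35 of 63), Kcnip (21 of 118 and 40 of 118), Kcnmb (4 of 32 and 12 of 32) and Kcnma1 alone (4 of 114 and 28 of 114). With its gene-end peaks included, Kcnn (25.4% and 55.6%) stood above the gene-body share at both TPs. Its 7 gene-end peaks, 4 called at TP2 and 7 at TP1, raised these values. They therefore do not place its gene-body peaks above that share. Counted the same way, Kcnd (18.8% and 56.5%) and Kcnk (21.3% and 56.0%) were below it at TP2 and above it at TP1. Of the 75 Kcnk peaks, 23 were gene-end peaks, and 15 of these were called at TP1. Kcng, Kcnip, Kcnmb and Kcnma1 were below the gene-body share at both TPs. Peaks of a gene share its neighbourhood and are not independent of each other.

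**Figure D1:**
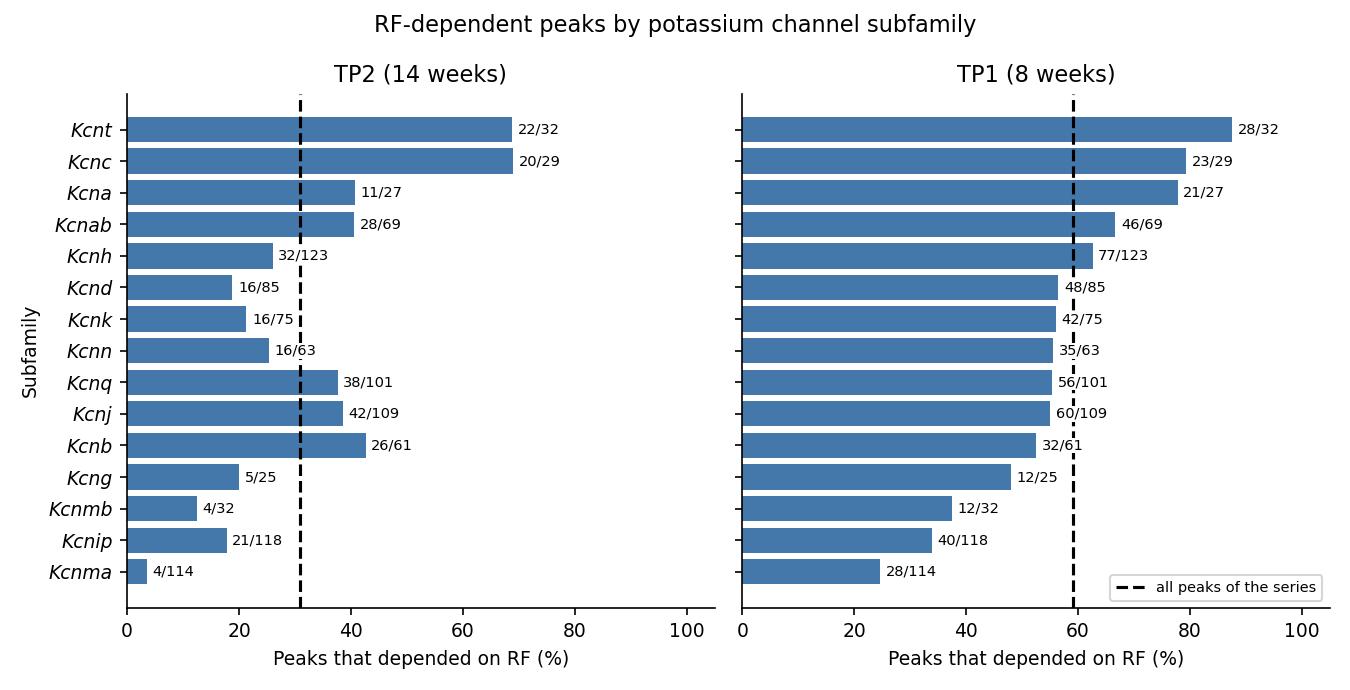
Share of peaks that depended on RF (x axis, percent) for subfamilies with at least 20 tested peaks (y axis), at TP2 on the left and at TP1 on the right, with called over tested peaks beside each bar. The dashed line is the share over all peaks of the series, 30.8% at TP2 and 59.1% at TP1, and in both panels Kcnt, Kcnc, Kcna and Kcnab stand to its right and Kcnd, Kcnk, Kcnn, Kcng, Kcnmb, Kcnip and Kcnma to its left. The share over gene-body peaks of all genes, not drawn, was 22.9% at TP2 and 50.7% at TP1. Each bar holds gene-end and gene-body peaks together, in proportions that differ between subfamilies.

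Each RF was then set against the average of the 4 others, and a peak counted as a differentially accessible region (DAR) where the log2 fold change was 0.5 or more in either direction and the FDR was below 0.01. At TP2, 13 potassium channel peaks were DARs with higher accessibility in RF3 (1.20%, against 2.69% of all peaks) and 6 with lower (0.554%, against 0.888%). RF1 had 7 higher and 3 lower (1.14% and 1.22% of all peaks), RF4 4 and 5 (0.541% and 1.32%), RF5 1 and 2 (0.217% and 0.688%), and RF2 1 and 1 (0.126% and 0.0464%). At TP1, RF1 had 73 higher and 25 lower (9.0% and 5.96% of all peaks), RF5 18 and 14 (2.28% and 3.0%), RF3 7 and 12 (1.23% and 0.763%), RF4 4 and 9 (0.598% and 1.88%), and RF2 1 and 0 (0.168% and 0.072%). For the last value, 1 peak was lower at an unadjusted p under 0.05 by edgeR and DESeq2 called 1. The count for RF1 at TP2 was 98 in place of 10 without the 3 libraries that lay near another RF, and that for RF3 37 in place of 19. Such a rise is favoured by the way these libraries were picked. With the 1 Mb offset, the count for RF1 at TP1 was 21 in place of 98, and the count for RF3 at TP2 was 0 in place of 19 (4 at an unadjusted p under 0.05). For DAR counts under these alternatives, no share over all peaks is given. The median log2 fold change over the gene-end peaks was -0.14 for RF3 at TP2, beside 0.05 over the gene-body peaks and 0.00 over all peaks, and -0.12 for RF4 at TP1, beside 0.00 and 0.01. For RF1 at TP1, 4 of the 5 general neuronal markers were higher at an FDR below 0.01, and Rbfox3 was not (log2 fold change -0.15). At this FDR, 4 of the 5 markers of inhibitory neurons and 2 of the 3 of excitatory neurons were higher. The other excitatory marker and 3 of the 4 microglial markers were lower, while P2ry12 (microglia) was higher by 0.41. Of 5 astrocyte markers, 2 were higher and 1 lower. Of 6 oligodendrocyte lineage markers, 1 was higher and 2 were lower. The endothelial marker with a gene-end peak was lower. The part of these markers in the RF1 counts was not tested. For marker counts here and below, no share over all peaks at this FDR alone is given. In the following, a log2 fold change is that of an RF over the average of the 4 others with its SE, the regional value is the mean log2 fold change of the other peaks in the same 1 Mb bin, and adjusted p-values are edgeR's.

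Among pore-forming voltage-gated subunits, the gene-end peak of Kcnd2 (chr6:21213449-21215940), which holds the promoter shown above, was higher in RF1 at TP1. It had 45.3, 36.0, 29.0, 31.3 and 39.5 CPM in RF1, against 15.6 to 27.2 CPM (median 21.3) in the 20 libraries of the other RFs. The groups did not overlap, and the log2 fold change was 0.78 ± 0.06 (adjusted p = 6.3e-16). The region was higher in RF1 as well, by 0.34, and with the 1 Mb offset the value was 0.29 and no longer a DAR. At TP2, RF1 had 20.8 to 33.5 CPM at this peak, against 21.4 to 33.4 CPM in the other RFs.

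A gene-end peak of Kcnc1 (chr7:46396113-46398365), which holds the promoter shown above, was lower in RF3 at TP2. RF3 had 19.96, 17.9, 18.9, 18.9 and 20.2 CPM, and the other RFs had 22.5 to 33.2 CPM (median 26.1), without overlap. The log2 fold change was -0.52 ± 0.06 (adjusted p = 5.1e-11), with a regional value of -0.34, and it was -0.15 with the 1 Mb offset. It fell short of the fold change threshold without replicate 2 (-0.49), with libraries within noise summed (-0.497) and with a loess offset (-0.35). Kcnb2, which encodes Kv2.2, was higher in RF3 at TP2 at a gene-end peak (chr1:15725397-15727027): 6.33, 4.85, 4.55, 4.69 and 4.44 CPM, against 2.34 to 4.27 CPM in the other RFs, a log2 fold change of 0.60 ± 0.11 (adjusted p = 2.3e-05) beside a regional value of 0.31. Without replicate 1, the highest RF3 library among them, it was 0.49, and with the 1 Mb offset 0.36.

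Changes inside these genes were larger on the log2 scale and rested on fewer counts. A gene-body peak of Kcnq1 (chr7:143302761-143303369), which encodes a subunit best known from heart and inner ear, had the largest fold change among the named peaks. RF5 had 2.35, 2.20, 3.02, 2.03 and 3.04 CPM at TP1, against 0.518 to 1.41 CPM in the other RFs, without overlap. The log2 fold change was 1.42 ± 0.12 (adjusted p = 1.5e-13), 1.23 with the 1 Mb offset, and the regional value was 0.23. At TP2, RF5 had 0.304 to 1.20 CPM there. A pair of peaks in Kcnh1, which encodes EAG1, was also higher in RF5 at TP1, by 0.97 ± 0.10 (3.73 to 4.94 CPM, against 1.52 to 2.90 CPM) and by 0.88 ± 0.14 (1.35 to 2.10 CPM, against 0.542 to 1.23 CPM). Neither overlapped the other RFs, and both stayed DARs with the 1 Mb offset. A peak assigned to Kcna4 (Kv1.4; chr2:107312202-107312523) was higher in RF1 at TP1 by 1.02 ± 0.15, with 1.12 to 1.80 CPM, against 0.344 to 1.00 CPM, and was 0.51 with the offset.
At TP2, the peak of Kcnh8 on chr17:52651168-52651469 was lower in RF1 (-0.99 ± 0.24), with 0.426 to 0.779 CPM, against 0.272 to 2.00 CPM in the other RFs, where the groups overlapped. A gene-body peak of Kcnb2 was higher in RF3 by 0.98 ± 0.24, a pair in Kcnh7 by 0.64 ± 0.13 and 0.64 ± 0.16, and a further one in Kcnq1 was higher in RF1 by 0.66 ± 0.15. All of these ranges overlapped those of the other RFs, and none of these peaks was a DAR with the 1 Mb offset. Calls were also lost without replicate 1 or 2 at Kcnh8 (-0.80 and -1.02), without 1 or 4 at Kcnb2 (0.86 and 0.84), without 1, 2 or 4 at Kcnq1 (0.52, 0.56 and 0.66), and without 2, 4 or 5 at the Kcnh7 peak on chr2:63020586-63021704 (0.59, 0.57 and 0.52), where it was also lost with libraries within noise summed (0.60, adjusted p = 0.019 by edgeR).

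Subunits that modify Kv2 channels gave a change at each TP. At a gene-end peak of Kcns3 (Kv9.3; chr12:11152770-11153624), RF1 had 1.22, 1.01, 2.34, 1.57 and 3.15 CPM at TP2, against 2.05 to 4.36 CPM in the other RFs. The overlap came from replicates 3 and 5, which are among the 3 libraries near another RF. The log2 fold change was -0.78 ± 0.17 (adjusted p = 6.9e-04), -1.30 without those 3 libraries and -0.60 with the 1 Mb offset. Without replicates 1, 2 or 4 it was -0.62, -0.61 and -0.73, and past an FDR of 0.01 in none of these. A gene-end peak of Kcng4 (Kv6.4; chr8:119632863-119633847) fell in RF1 at TP1, with 1.96, 2.14, 2.02, 1.23 and 1.68 CPM, against 2.21 to 4.00 CPM, without overlap. The log2 fold change there was -0.69 ± 0.12 (adjusted p = 1.3e-06), and -0.64 with the offset. Both genes have another peak that holds a RefSeq promoter window. There the log2 fold change was -0.14 for Kcns3 in RF1 at TP2 and -0.39 for Kcng4 in RF1 at TP1.

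Among accessory subunits, the peak over the Kcne3 promoter (chr7:100177468-100179148) changed in a different RF at each TP. At TP2, RF4 had 9.16, 8.48, 9.39, 9.64 and 9.49 CPM, against 4.80 to 9.16 CPM in the other RFs (log2 fold change 0.58 ± 0.08, adjusted p = 6.9e-07, regional value 0.24). At TP1, RF1 had 5.49, 4.90, 6.12, 5.06 and 3.81 CPM, against 6.42 to 9.98 CPM (-0.67 ± 0.08, adjusted p = 2.3e-10, regional value -0.40). Only the TP1 groups were apart, and neither was a DAR with the 1 Mb offset. A gene-body peak of Kcnab2 (chr4:152432340-152432624), the Kvβ2 subunit, was higher in RF5 at TP1: 6.13, 7.28, 7.40, 7.47 and 7.21 CPM, against 2.63 to 4.72 CPM in the other RFs. The groups were clearly apart, the log2 fold change was 0.90 ± 0.07 (adjusted p = 3.4e-15), and it was 0.78 with the offset. At TP2 the same peak ranged over 2.37 to 3.51 CPM in RF5 and 1.95 to 3.89 CPM in the other RFs. Peaks in Kcnip1 and Kcnip4, which encode KChIP proteins that bind Kv4 channels, were higher at TP2, that of Kcnip1 in RF1 by 0.72 ± 0.15 and that of Kcnip4 in RF3 by 0.68 ± 0.19, and both overlapped the other RFs. Neither held in every fit with a replicate left out: Kcnip1 was not called without replicates 1 (0.64) or 2 (0.54), and Kcnip4 held without replicate 2 but not without replicates 1, 3, 4 or 5 (0.65, 0.65, 0.72 and 0.59), nor with libraries within noise summed (0.70, adjusted p = 0.022 by edgeR).

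**Figure D2:**
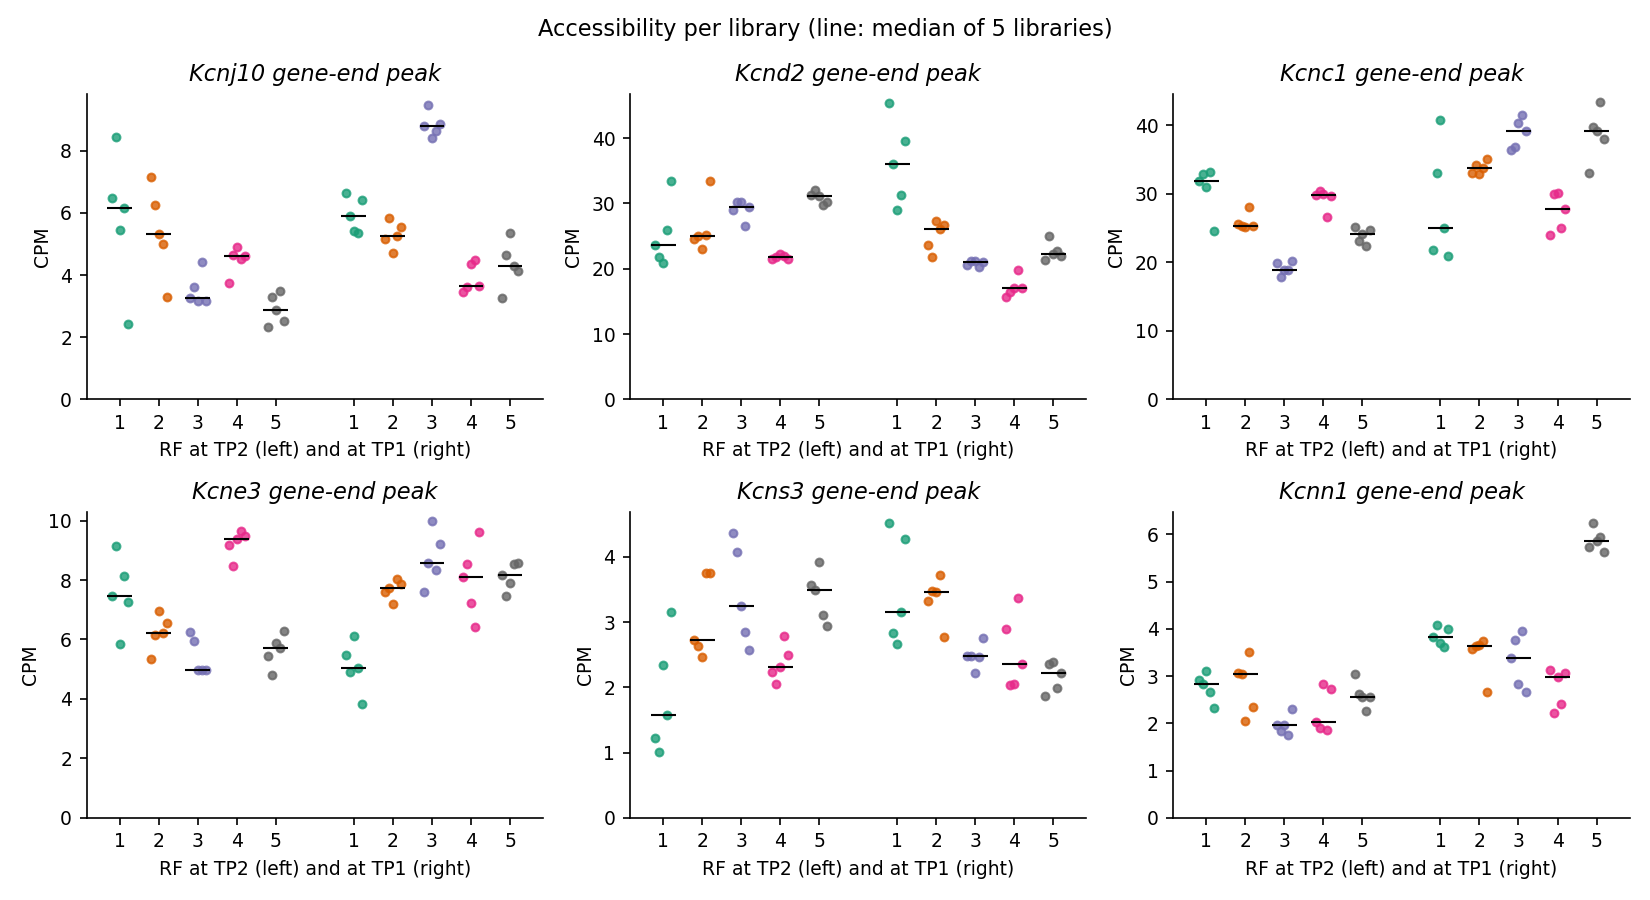
CPM (y axis) of 1 named gene-end peak from each of 6 members in each library, with RF1 to RF5 at TP2 on the left and at TP1 on the right of each panel; points are libraries and lines are medians of 5 libraries. The Kcnn1 peak lies past the far end of its gene. Kcnj10 is highest in RF3 at TP1 (8.42 to 9.49 CPM), Kcnd2 in RF1 at TP1 and Kcnn1 in RF5 at TP1, and Kcnc1 is lowest in RF3 at TP2.

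Among channels gated by calcium or sodium, peaks at Kcnn and Kcnt genes changed. A narrow gene-end peak at Kcnn1 (chr8:70841151-70841356), which also lies at Arrdc2, was higher in RF5 at TP1. RF5 had 5.73, 6.25, 5.86, 5.94 and 5.62 CPM, and the other RFs had 2.21 to 4.08 CPM, without overlap (0.82 ± 0.08, adjusted p = 1.6e-11, and 0.72 with the 1 Mb offset). This peak lies past the far end of Kcnn1, not at its start. The Kcnn1 peak that holds a RefSeq promoter window had a log2 fold change of 0.20 in RF5 at TP1. Gene-end peaks at Kcnn4, the intermediate-conductance channel, and Kcnn2 (SK2) differed in RF1 at TP1 in opposite directions, by -0.74 ± 0.13 and 0.69 ± 0.11. Their regional values were -0.61 and 0.40, and with the offset they were -0.29 and 0.21. The Kcnn4 peak lies at the far end of its gene, and the strand of Kcnn2 was not known. In Kcnt2, a sodium-activated channel also known as Slick, a pair of gene-body peaks was higher in RF1 at TP1, by 0.90 ± 0.12 and 0.82 ± 0.08, and another was lower in RF4 at TP2 (-0.64 ± 0.16). In the same order, the values of the RF1 pair were 0.38 and 0.31 with the 1 Mb offset, and the RF4 peak was not called without replicates 3 (-0.52) or 4 (-0.55) or with libraries within noise summed (-0.69, adjusted p = 0.034 by edgeR).

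Among inward rectifiers, a gene-end peak of Kcnj10 (Kir4.1; chr1:172342301-172344052) had the largest change among the gene-end peaks of the members at TP1. Kcnj10 is known as a channel of astrocytes and oligodendrocytes rather than of neurons. At TP1, RF3 had 8.81, 9.49, 8.42, 8.62 and 8.87 CPM, against 3.25 to 6.64 CPM (median 4.94) in the other RFs, without overlap. The log2 fold change was 0.88 ± 0.07 (adjusted p = 3.1e-14), the regional value was -0.02, and the value with the 1 Mb offset was 0.88. At TP2 the RF with the largest difference was RF5, with 2.34, 3.31, 2.89, 3.48 and 2.52 CPM, against 2.42 to 8.45 CPM in the other RFs (-0.70 ± 0.13, adjusted p = 3.7e-04, and -0.69 with an adjusted p of 0.059 with libraries within noise summed). RF3 itself had 3.15 to 4.43 CPM at TP2. This peak is 1 of 3 gene-end peaks of Kcnj10. The peak that holds its RefSeq promoter window changed less in these contrasts, by 0.31 in RF3 at TP1 and -0.19 in RF5 at TP2. In RF4 at TP1 that promoter peak had -0.50.
Gene-end peaks of glial markers also moved in RF3 at TP1 and in RF5 at TP2, and they moved in other RFs too. In RF3 at TP1, Aldh1l1 (astrocytes) had a log2 fold change of 0.99 and Olig2 (oligodendrocyte lineage) of 0.71, and in RF5 at TP2 Aldh1l1 had -0.82 and Olig2 -0.99. Over the whole lists, 2 of 5 astrocyte markers were higher and 1 lower in RF3 at TP1, and 1 of the 5 was lower in RF5 at TP2. Of 6 oligodendrocyte lineage markers, 3 were higher in RF3 at TP1, and 1 was higher and 2 were lower in RF5 at TP2. In RF4 at TP1, Aldh1l1 had -1.02, and 2 of 5 astrocyte markers were lower and 0 higher. There, 1 of the 6 oligodendrocyte lineage markers was higher and 3 were lower. In RF1 at TP1, 2 of 5 astrocyte markers were higher and 1 lower. Such shifts were thus not particular to the RFs in which the Kcnj10 peak stood out. The summed astrocyte markers were at 50.6 to 53.8 CPM in RF3 at TP1, against 38.0 to 52.2 CPM in the other RFs, and at 42.3 to 44.9 CPM in RF5 at TP2, against 40.6 to 54.4 CPM. Their part in the Kcnj10 difference was not tested, and fewer nuclei of a type and lower accessibility per nucleus cannot be told apart in these samples. A gene-end peak of Kcnj11 (Kir6.2), the pore of the ATP-sensitive channel, was higher in RF1 at TP2 (0.54 ± 0.11) and fell in RF1 at TP1 (-0.67 ± 0.10), with regional values of 0.28 and -0.54 and overlapping ranges at both TPs, and the TP2 call was lost without replicates 1, 2 or 4 (0.50, 0.52 and 0.47). Kcnj2 (Kir2.1) had a gene-body peak higher in RF1 at TP1 by 0.81 ± 0.14. No peak of the leak channel genes was among those with the largest changes.

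**Figure D3:**
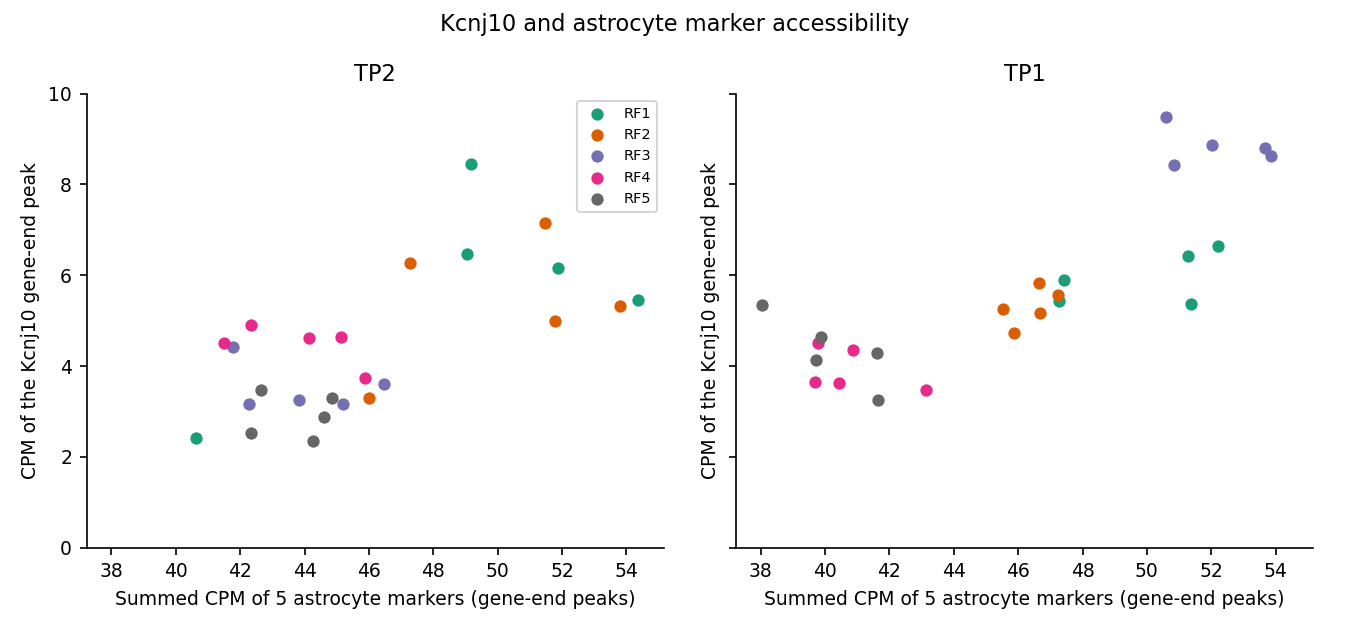
CPM of the Kcnj10 gene-end peak (y axis) against the summed CPM of the gene-end peaks of 5 astrocyte markers (x axis), 1 point per library, TP2 on the left and TP1 on the right, coloured by RF. The RF3 libraries at TP1 lie at the top right (50.6 to 53.8 CPM of markers), above RF1 libraries with up to 52.2 CPM of markers.

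Genes with at least 10 tested peaks (27 genes) differed in how many of their peaks depended on RF. At TP2, Kcnab2 (12 of 16), Kcnt2 (17 of 26), Kcnc2 (5 of 10) and Kcnb2 (14 of 37) were among the highest shares. At TP1, Kcnt2 (22 of 26), Kcnab2 (13 of 16), Kcnc2 (7 of 10) and Kcnh1 (37 of 53) were. At the other end, Kcng2 (10 peaks), Kcnk13 (10 peaks) and Kcnk2 (14 peaks) had 0 at TP2 by edgeR, with 4, 0 and 6 at an unadjusted p under 0.05 and 2, 0 and 1 by DESeq2, and at TP1 Kcnip1 had 7 of 33, Kcnk2 3 of 14 and Kcnma1 28 of 114. Leaving out 1 replicate number moved several by over 1.5 times. At TP2, Kcnt2 had 9 and 11 without replicates 1 and 2, Kcnc2 3 and 2, and Kcnb2 6 without replicate 1. At TP1, Kcnma1 had 15 without replicate 4 and 18 without replicate 2, and Kcnk2 5 without replicate 3. With the 1 Mb offset at TP2, 0 of the 26 Kcnt2 peaks were called. The bin counts held Kcnt2 peaks as well, so this does not tell a change over the gene from one over its region. Kcnma1 had the most peaks of any member, followed by Kcnip4 (69), Kcnh1 (53), Kcnab1 (49) and Kcnd2 (49).
In Kcnt2, Kcnh1, Kcnab1 and Kcnab2, which were named for their shares or number of peaks, the called peaks mostly moved one way. A tally over all genes is not given. In Kcnt2, 13 peaks were higher and 0 lower in RF3 at TP2 at an FDR below 0.01, and 10 were lower and 0 higher in RF4. At TP1, 22 were higher and 0 lower in RF1, with a median log2 fold change over its 26 peaks of 0.50. Kcnh1 had 29 higher and 0 lower in RF5 at TP1, and 2 higher and 20 lower in RF1. Kcnab1 had 31 higher and 0 lower in RF1 at TP1. Kcnab2 went the other way from Kcnt2: in RF3 at TP2 it had 11 peaks lower and 0 higher, and in RF1 at TP1 9 lower and 0 higher. Each of these zeros was also 0 by DESeq2 and, at an unadjusted p under 0.05 by edgeR, 0 except for Kcnab1 with 1. In Kcnma1, by contrast, RF1 at TP1 had 8 peaks higher and 6 lower. No share over all peaks at this FDR alone stands beside these counts, so they describe only the direction within each gene.

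**Figure D4:**
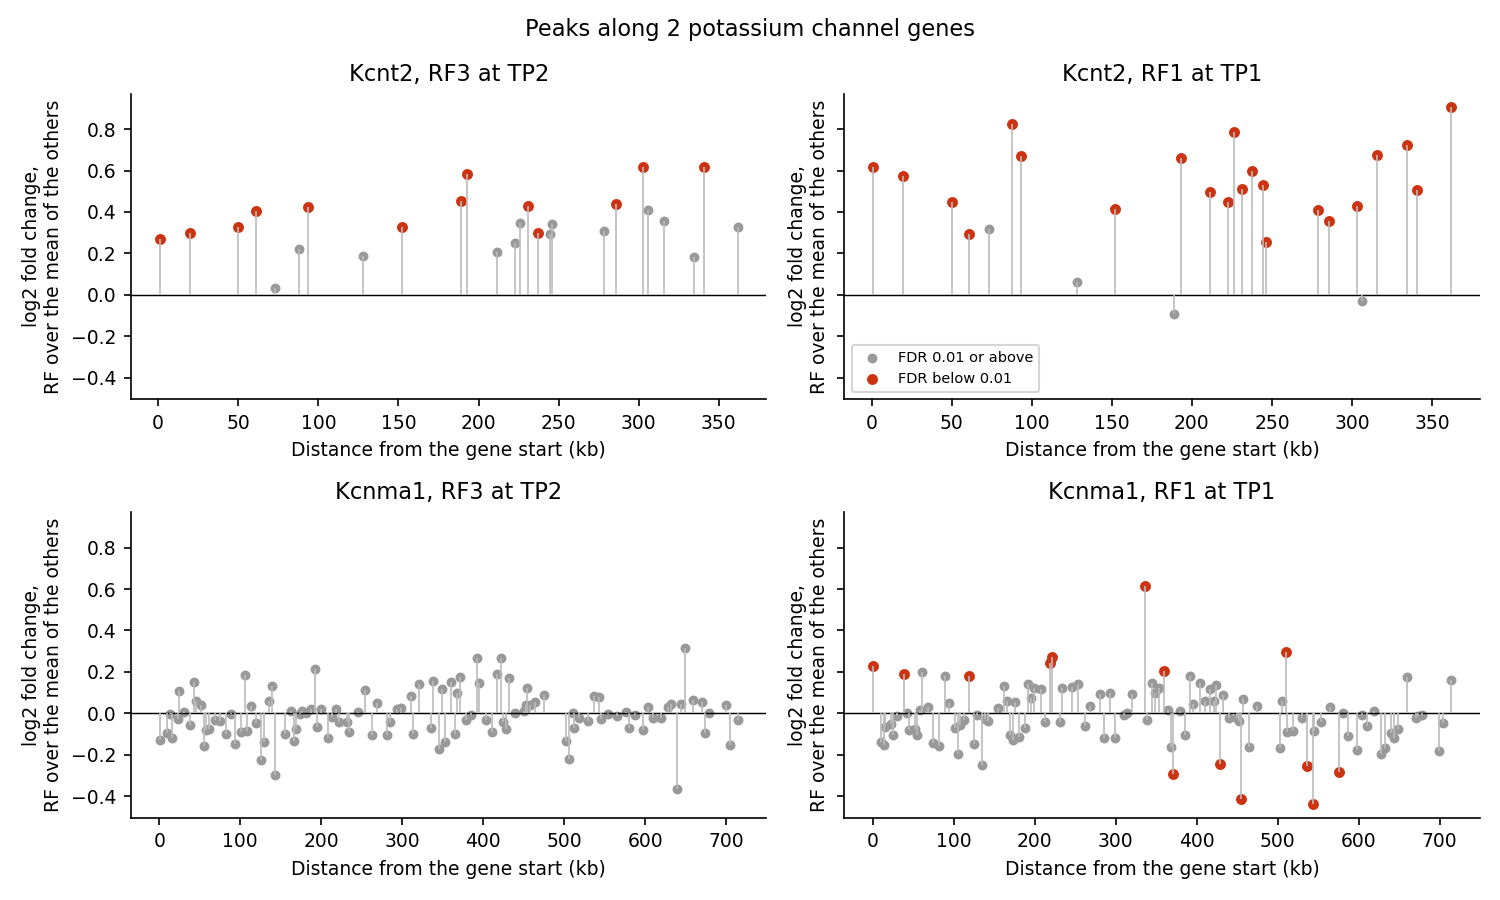
Log2 fold change (y axis) of each peak of Kcnt2 (top) and Kcnma1 (bottom) against its distance from the gene start in kb (x axis), for RF3 at TP2 on the left and RF1 at TP1 on the right; red points have an FDR below 0.01. The 22 red points of Kcnt2 in RF1 at TP1 all lie above 0, and the 14 of Kcnma1 lie on both sides.

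These directions were set against those of the surrounding peaks. Over the 1083 potassium channel peaks, the log2 fold change of RF3 at TP2 correlated with that of the other peaks in the same 1 Mb bin at r = 0.79, and 860 peaks had the same sign as their surroundings. For RF1 at TP1, r was 0.75 and 872 peaks had the same sign. These surroundings include other peaks of the same gene, and with all of those left out, an alternative added after seeing the data, r was 0.76 for RF3 at TP2 and 0.74 for RF1 at TP1. With them in, the values were 0.69 for RF4 at TP2, 0.61 for RF1 at TP2, 0.68 for RF3 at TP1 and 0.58 for RF5 at TP1. Peaks of 1 bin share libraries and sequence surroundings, so these correlations are a description across peaks. Of the 30 differences named above (27 peaks, 3 of them named at both TPs), 12 stayed DARs with the 1 Mb offset: those of Kcns3 at TP2, Kcnip1 at TP2, Kcnj10 at both TPs, and at TP1 Kcng4, Kcnn1, Kcnq1, Kcnh1 (2 peaks), Kcnab2, Kcna4 and Kcnj2.

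**Figure D5:**
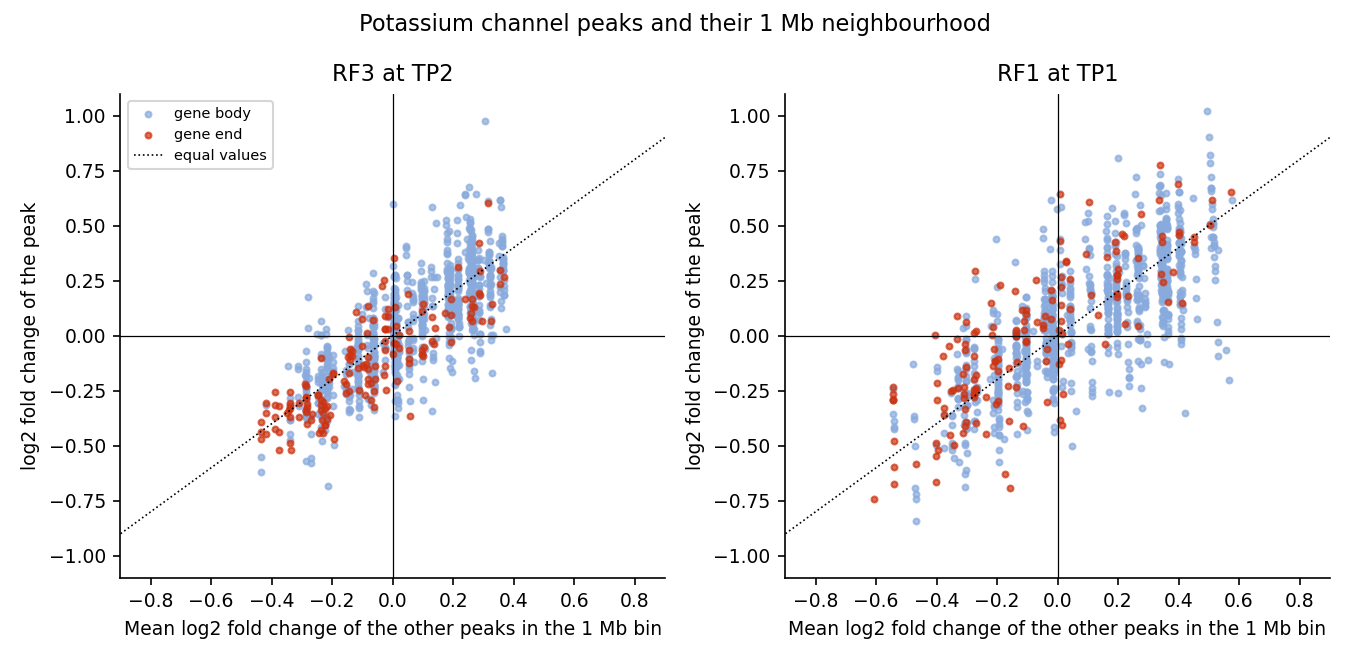
Log2 fold change of each potassium channel peak (y axis) against the mean log2 fold change of the other peaks in its 1 Mb bin (x axis), for RF3 at TP2 on the left and RF1 at TP1 on the right; the dotted line marks equal values. Points lie along the dotted line (r = 0.79 and 0.75), and gene-end peaks (red) lie mostly at negative values on both axes for RF3 at TP2.

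Whether RF differences were the same at both TPs was tested as an interaction of RF and TP. It was past an FDR of 0.01 in 583 potassium channel peaks (53.8%, against 54.4% of all peaks), 110 of 153 at gene ends (71.9%; 74.4% for all genes) and 473 of 930 in gene bodies (50.9%; 46.7% for all genes), and in 270 with the 1 Mb offset (24.9%, against 28.9% of all peaks). The smallest p-value belonged to a gene-body peak of Kcnq3 (chr15:66238701-66240408), a subunit of the M-current. It had 25.8, 26.8, 24.5, 28.8 and 30.4 CPM in RF1 and 29.5, 29.1, 30.7, 30.4 and 30.1 CPM in RF5 at TP2. At TP1 it had 35.5, 34.5, 32.5, 38.5 and 39.4 CPM in RF1 and 17.3, 18.6, 19.1, 20.2 and 18.9 CPM in RF5. RF1 and RF5 were thus far apart at TP1 and not at TP2 (adjusted p = 2.1e-17). Its log2 fold changes were 0.54 in RF1 and -0.63 in RF5 at TP1, and between -0.06 and 0.09 over the RFs at TP2.
Other small p-values belonged to a peak over the Kcnh4 promoter, which also lies at Hcrt (adjusted p = 6.2e-15), and to peaks of Kcnn2 (8.7e-15), Kcnd2 (1.8e-14) and Kcnh6 (8.0e-14). The Kcnh4 peak had log2 fold changes of 0.33 in RF1 and -0.32 in RF3 at TP2, and of -0.36 in RF1 and 0.20 in RF3 at TP1. The regional values of Kcnh4 had the same signs as the peak for RF1 and RF3 at both TPs.

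Genes for partners of these channels gave a similar picture by count. The 20 partner genes (Dpp6, Dpp10, Cntnap2, Ank3, Abcc8, Hcn2 and others) had 446 peaks, of which 99 depended on RF at TP2 (22.2%, against 30.8% of all peaks), 229 at TP1 (51.3%, against 59.1%) and 228 had an interaction (51.1%, against 54.4%). Only 30 of these were gene-end peaks, and by class the shares were 63.3% of gene-end peaks and 19.2% of gene-body peaks at TP2 (55.1% and 22.9% for all genes), 83.3% and 49.0% at TP1 (80.3% and 50.7%), and 86.7% and 48.6% for the interaction (74.4% and 46.7%). The largest change at TP2 was at a gene-body peak of Vapb, higher in RF1 by 0.82 ± 0.17, and peaks of Cntnap2 (Caspr2, which clusters Kv1 channels at axons) were higher in RF3 by 0.77 ± 0.13 and 0.72 ± 0.10. At TP1 the largest was a peak of Cntnap2 higher in RF5 by 1.21 ± 0.19, with 0.875 to 1.45 CPM, against 0.255 to 0.873 CPM. Abcc8, which encodes the sulfonylurea receptor that assembles with Kcnj11 and lies beside it, was lower in RF1 at TP1 at a gene-body peak (-0.92) and a gene-end peak (-0.83), in the same direction as Kcnj11.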

How the data were processed

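ATAC-seq of NeuN-positive nuclei was analysed in 50 libraries. The authors trimmed reads with fastp, aligned them with Bowtie2 to GRCm38, marked duplicates with Picard 1.140, called peaks in each library with MACS2 2.1.4, kept those present in 3 of 5 libraries of a group, merged them over groups and counted reads with featureCounts. The deposited raw counts per merged peak were used for all tests. The deposited table called normalized holds the same counts and was left out. Of the deposited peak lists, which give a score, a fold enrichment ratio, a -log10 p-value and a -log10 q-value per peak, only positions and -log10 q-values entered the results. The number from 1 to 10 in the deposited merged list was not used, since it equalled the groups with a call in at least 3 libraries in 82.9% of peaks. No deposited column of a comparison was used.

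For the tests, edgeR 4.0.16 (R 4.3.3) was run on the counts after filterByExpr and TMM. Quasi-likelihood F-tests (robust) came from separate models for the TPs, with terms for RF and for the replicate number, and from a joint model over both TPs for the interaction. All 1083 member peaks passed the filter on low counts. CPM used TMM sizes over all libraries. Libraries sharing a replicate number had deviations from their group means that correlated at 0.0008 on average at TP2 (1 of 50 pairs over 0.1) and at 0.061 at TP1 (13 of 50 pairs). The numbers thus carried almost no shared variation at TP2 and a weak one at TP1. The study sorted nuclei in batches with 1 sample per RF, no source ties the deposited number to a batch, and the block was kept as the design fixed it. Pairs of libraries were called within sampling noise where the variance of their difference over peaks with 500 to 5000 counts was at most 1.02 times 2 binomial variances, each read pair giving 2 counts. Alternatives were DESeq2 1.42.0, no filter, no block, a loess offset, an offset of 1 Mb bin totals (bins with at least 5 tested peaks), libraries within noise summed, and libraries left out. The bin totals included the tested peak and the peaks of its gene in that bin. Named peaks were, per TP, the 8 gene-end and 8 gene-body DARs with the largest fold change (at most 2 per gene) and the 6 genes with the smallest interaction p-value. Genes were named by share of RF-dependent peaks among those with at least 10 peaks, by number of peaks and by promoter level. A few genes that these rules select are not reported here. The members, lists and rules were chosen with earlier results of these data known. Promoter sequences are RefSeq's (GRCm38.p6). Tables and plots used Python 3.11.15, numpy 2.4.6, pandas 2.3.3 and matplotlib 3.10.9. Protein sequences were not used here.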

Additional observations from a re-analysis of the deposited data

Results flagged for a closer look

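Among the named peaks, 11 of 150 groups of 5 libraries had 1 library set apart from the rest by Dixon's gap criterion, which chance meets in about 1 of 20 groups. At TP2, the Kcnc1 gene-end peak was low at 24.6 CPM in RF1 replicate 5, which is 1 of the 3 libraries near another RF, and at 26.6 CPM in RF4 replicate 4, and high at 28.0 CPM in RF2 replicate 4. Further at TP2, the Kcnb2 gene-end peak was high at 6.33 CPM in RF3 replicate 1, the Kcnj11 gene-end peak low at 2.66 CPM in RF2 replicate 4, and the Kcnip1 gene-body peak low at 1.70 CPM in RF3 replicate 2. At TP1, low libraries were found at the Kcnn1 gene-end peak (2.67 CPM in RF2 replicate 5), the Kcnn4 gene-end peak (0.592 CPM in RF1 replicate 1) and the Kcnab2 gene-body peak (6.13 CPM in RF5 replicate 1 and 2.63 CPM in RF4 replicate 4), and a high one at a Kcnt2 gene-body peak (4.74 CPM in RF2 replicate 3).

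RF differences changed between TPs at 29 of the 33 peaks that the naming rules selected, by edgeR's test of the RF by TP interaction (adjusted p below 0.01), beside 54.4% of all peaks. These peaks were chosen for their RF differences or for this test itself, so the number is a description. Among gene-end peaks, the adjusted p-values were smallest at Kcnh4 (6.2e-15), Kcnh6 (8.0e-14), Kcne3 (3.0e-13), Kcnc1 (1.3e-12), Kcnj11 (3.5e-12) and Kcnd2 (1.6e-10). Further gene-end peaks past the threshold lay at Kcnj10 (7.0e-10), Kcns3 (2.9e-07), Kcnb2 (2.4e-05), Kcnn1 (3.0e-05), Kcnn4 (1.4e-04) and Kcnn2 (2.0e-04). Among gene-body peaks, the adjusted p-values were smallest at Kcnq3 (2.1e-17), Kcnn2 (8.7e-15), Kcnd2 (1.8e-14), Kcnq1 (6.9e-09), Kcnq1 (3.1e-08), Kcnab2 (4.5e-08), Kcnt2 (8.5e-08) and Kcnh7 (1.2e-06). Further gene-body peaks past the threshold lay at Kcnt2 (1.3e-06), Kcnt2 (1.3e-05), Kcnh1 (1.6e-05), Kcnb2 (1.9e-05), Kcnh8 (3.4e-04), Kcna4 (5.8e-04), Kcnip1 (3.0e-03) and Kcnj2 (4.1e-03).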

How the results depend on the processing

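Counts are of potassium channel peaks, and the cause of each change was not tested. The shares of RF-dependent peaks moved over all peaks of the series as well, as given above. No share over all peaks stands beside the DAR counts in this section, so they are a description only. With the 1 Mb offset, 76 peaks (29 at gene ends) depended on RF at TP2 and 270 had an interaction. The DARs with it were 2 for RF1, 1 for RF2, 0 for RF3 and 0 for RF4 at TP2 (4 and 7 at an unadjusted p under 0.05 by edgeR), and 21 for RF1, 3 for RF2, 7 for RF3 and 20 for RF5 at TP1. With libraries within sampling noise summed and no block, 159 peaks (53 at gene ends) depended on RF at TP2, and DARs were 0 for RF2, 10 for RF3, 3 for RF4 and 0 for RF5 at TP2, and 0 for RF2 and 9 for RF3 at TP1 (8 for RF2 and 8 for RF5 at TP2 and 5 for RF2 at TP1 at an unadjusted p under 0.05). Without RF1 replicates 3 and 5 and RF2 replicate 5, 530 depended on RF at TP2, with 98 DARs for RF1, 7 for RF2, 37 for RF3 and 12 for RF5. Requiring a log2 fold change of at least 0.5 for some RF as well left 37 (6 at gene ends) at TP2 and 133 (24 at gene ends) at TP1. The single DAR of RF2 at TP1 became 2 with DESeq2 and 0 with no replicate block (4 at an unadjusted p under 0.05). The fit without the block also gave 1 RF-dependent peak each at Kcng2 and Kcnk2 at TP2 in place of 0, and it changed no call of a named difference. Leaving out 1 replicate number at a time gave 164 to 421 RF-dependent peaks at TP2 (177, 164 and 192 without replicates 1, 2 and 4). These were 15.1% to 38.9%, beside 16.1% to 38.9% of all peaks. DARs at TP2 were 0 to 59 for RF1, 0 to 7 for RF2, 16 to 32 for RF3, 5 to 9 for RF4 and 1 to 7 for RF5. At TP1 these fits gave 461 to 579 RF-dependent peaks (42.6% to 53.5%, beside 47.3% to 58.3% of all peaks). DARs at TP1 were 61 to 143 for RF1, 0 to 1 for RF2, 14 to 23 for RF3, 9 to 13 for RF4 and 28 to 40 for RF5. Interactions numbered 435 to 582 (40.2% to 53.7%, beside 40.8% to 53.9% of all peaks).

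With all peaks of the same gene left out of the surroundings, an alternative chosen after seeing the data, the correlation with the surroundings was 0.76 for RF3 and 0.53 for RF1 at TP2 and 0.74 for RF1 and 0.48 for RF5 at TP1. No named difference turned its direction under any alternative run. Of the 30, 18 were no longer DARs with the 1 Mb offset, 5 with libraries summed, 2 with the loess offset and 0 with DESeq2 or no filter, and between 2 and 8 without 1 replicate number. The count of 58 genes with a gene-end peak called in every library was 10 at a -log10 q of at least 5 and 6 where calls had to cover 50% of the merged peak. Peaks of a few CPM, as at Kcnh8 and Kcnip4, rest on few reads at TP2, where the shallowest library had 5111223 counts.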
